A study of Homo sapiens with 6 samples.

Results

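The genes described here are TAF9B, its paralog TAF9, and the TFIID subunits TAF1, TAF2, TAF4, TAF5, TAF6, TAF10, TAF12 and TBP, in T24 cells with and without silencing of RBM3. TAF9B was chosen by its rise after silencing in these same libraries, and the others were taken because they are its paralog and its partners in the complex. Of the 10 genes, 9 had a row among the 63677 gene identifiers of the count table, and all 9 were among the 15099 genes that passed the filter on low counts. No row carried the current identifier of TAF9, ENSG00000273841, so TAF9 itself has no value here. T24 is a cell line from a human urinary bladder carcinoma. The cells were transfected for 4.5 h at 25 nM, either with a non-targeting control siRNA (Silencer Select Negative control No.1) or with a pool of the siRNAs s11858 and s11860 against RBM3, and left to recover overnight. Both groups received siRNA and the transfection reagent, and there was no untransfected group. Each group held 3 libraries of polyadenylated RNA, numbered 1, 3 and 5 for the control and 3, 4 and 5 for siRBM3. The sequenced libraries all came from this line, and the labels do not state that the libraries came from separate cultures, so p-values measure the spread between these libraries, which may be technical.

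TFIID is the general transcription factor that recognises core promoters and nucleates the assembly of RNA polymerase II there. It consists of the TATA-binding protein TBP and a set of TBP-associated factors, the TAFs, many of which pair through histone folds, as TAF9 or TAF9B does with TAF6 and TAF4 does with TAF12. TAF9, TAF9B, TAF10 and TAF12 are also built into SAGA, a coactivator with histone acetyltransferase and deubiquitinase activity. TAF9B is a close relative of TAF9 that can take its place in both complexes.

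The paralogs are alike in sequence, and it was checked whether reads of one could be counted for the other. TAF9B (chromosome X, 77385245 to 77395147, minus strand, GRCh37) and TAF9 (chromosome 5, 68657853 to 68665840, minus strand) have coding sequences of 753 and 792 bases, and 629 of 753 aligned positions were identical (83.5%). The longest identical run was 46 bases, shorter than the 75-base reads. No 75-base word was shared between the annotated transcripts of the genes, out of 2735 words of TAF9B. The stretch that contains the longest identical run is printed here for both, from coding base 330 to 404 on the minus strand of GRCh37, within 1 exon of each gene, at chrX:77393247-77393321 for TAF9B and at chr5:68661161-68661235 for TAF9. Capitals mark the 9 bases that differ.
TAF9B: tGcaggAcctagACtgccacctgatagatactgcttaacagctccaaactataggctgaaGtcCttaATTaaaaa
TAF9: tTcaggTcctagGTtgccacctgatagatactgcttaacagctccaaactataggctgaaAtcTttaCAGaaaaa
An untrimmed, error-free read from within an annotated TAF9B transcript therefore matched no annotated TAF9 transcript in full. TAF9B shared 32 of its words (1.2%) with another annotated gene, the pseudogene TAF9BP1, and its exons overlapped those of no other gene.

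The gene targeted by the siRNAs, RBM3, encodes a cold-inducible RNA-binding protein. Its level in CPM (counts per 1000000 counts of a library, scaled by TMM factors) was 225, 368 and 301 in controls 1, 3 and 5, against 54.1, 90.1 and 58.4 in siRBM3 libraries 3, 4 and 5, and the groups were far apart. The log2 fold change was -2.14 ± 0.24 (SE, n = 3 per group), with an adjusted p (FDR) of 0.0822 by edgeR's quasi-likelihood test and 3.87e-14 by DESeq2. An exact two-sided permutation test gave p = 0.1, the smallest that 3 against 3 libraries allow. The libraries held 23603992 to 45098612 counts. SiRBM3 replicate 3 was the deepest and stood apart by its mitochondrial counts, 9.4% of its total against 1.63% to 4.15% in the other 5 libraries. Epithelial keratins were high in all libraries, with KRT7 between 2350 and 3240 CPM and KRT8 between 780 and 1340 CPM, and the blood and endothelial markers with a row did not exceed 0.689 CPM, the level of VWF in 1 library. The basal markers KRT5, KRT17 and TP63, the uroplakins UPK1A and UPK3A and the epithelial cadherin CDH1 were at or near 0. KRT17 was at 0 CPM in every library, and that 0 is not read as absence, for the reason given with POLR2H below. Other markers of the same list were detected. UPK2 was at 1.13 to 1.86 CPM, EPCAM at 4.9 to 6.87 and GATA3 at 9.31 to 14.3. FOXA1 was at 39.1 to 49.9 CPM and PPARG at 133 to 149.

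TAF9B was measured at 55.4, 57.7 and 66.1 CPM in control replicates 1, 3 and 5. It was measured at 98.7, 104 and 97.6 CPM in siRBM3 replicates 3, 4 and 5. Every siRBM3 library was above every control library, and the spread within each group was small beside the distance between them. The control mean of 59.7 ± 5.59 CPM (SD, n = 3) compares with an siRBM3 mean of 100 ± 3.71 CPM, which is a 1.68-fold or log2 0.75 difference. The value of siRBM3 replicate 3, the library with the high mitochondrial share, lay between those of the other siRBM3 libraries. Leaving out 1 library at a time gave log2 fold changes from 0.69 to 0.82. Among all 15099 genes TAF9B ranked 284th by the size of its rise. Since the gene was selected on this contrast, these values are a description and no test is attached to them. RNA from a whole culture does not tell a change in every cell from a change in some of the cells.

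**Figure D1:**
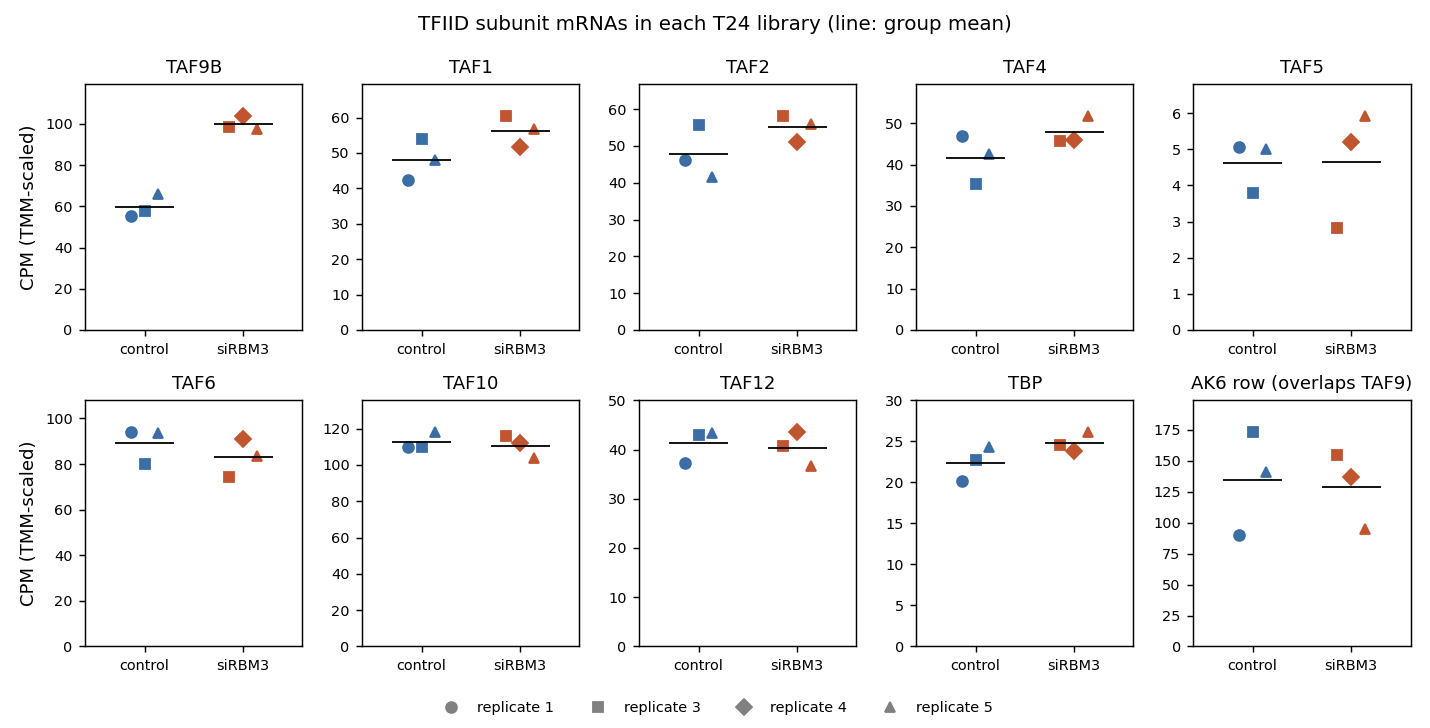
Level of each listed gene with a row in the count table, in CPM scaled by TMM factors, 1 panel per gene, with 1 point per library and a bar at the mean of the 3 libraries in each group. For TAF9B the siRBM3 points (97.6 to 104 CPM) lie above the control points (55.4 to 66.1 CPM), while for the other 8 genes the groups overlap.

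None of the other 8 measured genes separated the groups. Their log2 fold changes ran from -0.10 to 0.23, with a median of 0.07, and 4 were above and 4 below 0, where the median of all tested genes was -0.01. By edgeR, 0 of 8 reached an unadjusted p under 0.05, against 13.1% of all tested genes in either direction, 6.56% higher and 6.58% lower in siRBM3. The libraries of the groups overlapped for all 8. Among all tested genes 9.98% were higher in every siRBM3 library than in every control library and 9.93% were lower. For so few genes, 0 of 8 is near these shares and near the 13.1%. At the study's thresholds, a fold change of at least 1.5 with an FDR below 0.01, edgeR called 0 of the 8 and 0 of 15099 genes (0%), although 1983 genes were under 0.05 before adjustment. With DESeq2, 159 of 13068 genes passed (1.22%), none of the 8 among them. A missed threshold does not show equal levels, so the intervals are given. For 7 of the 8 the 95% confidence interval lay within a 1.5-fold change in either direction (log2 0.58), and TAF5 was the exception.

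**Figure D2:**
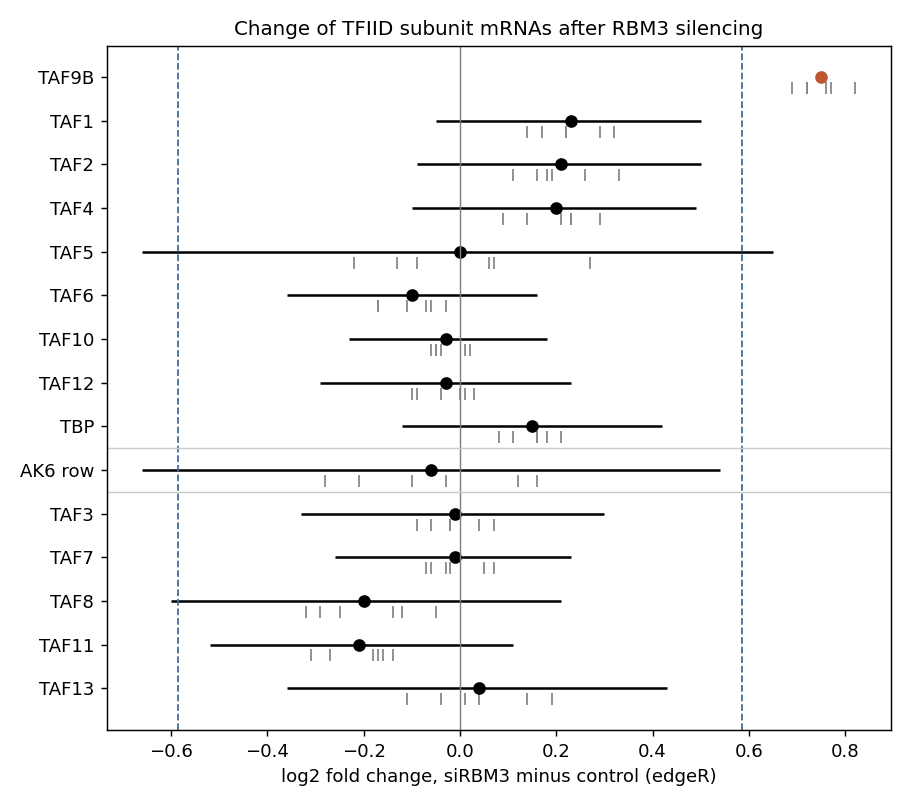
Log2 fold change, siRBM3 over control, of the listed genes and the other TFIID subunits, with the 95% confidence interval from edgeR as a horizontal line and small ticks for the values with 1 library left out. Dashed lines mark a 1.5-fold change, and TAF9B, at 0.75, is drawn without an interval because it was selected on this contrast.

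TAF6 carries the histone fold that pairs with TAF9 or TAF9B, and it lies at chromosome 7, 99704499 to 99717464, minus strand. It was measured at 93.9, 79.8 and 93.5 CPM in control replicates 1, 3 and 5 and at 74.5, 90.9 and 83.7 CPM in siRBM3 replicates 3, 4 and 5. The groups overlapped, with the lowest value in siRBM3 replicate 3. The log2 fold change was -0.10 with a 95% confidence interval from -0.36 to 0.16 and an FDR of 0.756. Some of its exon bases (26.0%) also belong to other annotated genes, chiefly AP4M1 on the opposite strand, which encodes an adaptor complex subunit and whose log2 fold change was 0.02. The strand setting of the counting is not given, so reads of such shared bases cannot be assigned. CNPY4, which overlaps TAF6 by 2.04% of its exon bases, had a log2 fold change of 0.33 (FDR 0.578).

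TAF9 shares exons with AK6, which encodes a nuclear adenylate kinase and lies on the same strand. The table has a row for ENSG00000085231, now the identifier of AK6, and AK6 and TAF9 have 508 exon bases in common. Of the 75-base words of AK6 transcripts, 19.8% also occur in TAF9. The sources used here do not name the annotation release used for counting, and whether this row took in TAF9's own exons is unknown. The row was measured at 90.0, 173 and 141 CPM in control replicates 1, 3 and 5 and at 155, 137 and 94.8 CPM in siRBM3 replicates 3, 4 and 5. Control replicate 1 and siRBM3 replicate 5 were low, control replicate 3 was highest, and the groups overlapped. The log2 fold change was -0.06, with a wide interval from -0.66 to 0.54, or 0.635-fold to 1.45-fold. RAD17, a checkpoint clamp loader subunit whose exons overlap TAF9 on the opposite strand, had a log2 fold change of -0.01.

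TAF10 and TAF12 are, like TAF9B, shared between TFIID and SAGA. TAF10 (chromosome 11, 6627524 to 6633770, minus strand) was measured at 110, 110 and 118 CPM in controls 1, 3 and 5, against 116, 112 and 104 CPM in siRBM3 libraries 3, 4 and 5. It had the narrowest interval of the family, a log2 fold change of -0.03 from -0.23 to 0.18 (FDR 0.925). More of its exon bases belong to other genes (53.7%) than for any other listed gene, mostly to ILK on the opposite strand, an integrin-linked pseudokinase with a log2 fold change of -0.12 (FDR 0.694). TAF12 (chromosome 1, 28914341 to 28974803, minus strand) was measured at 37.3, 43.0 and 43.4 CPM in control replicates 1, 3 and 5 and at 40.8, 43.5 and 36.6 CPM in siRBM3 replicates 3, 4 and 5. Both the lowest and the highest value belonged to siRBM3 libraries, and the log2 fold change was -0.03, from -0.29 to 0.23 (FDR 0.933).

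TAF4, the histone-fold partner of TAF12 in TFIID, lies at chromosome 20, 60528525 to 60640937, minus strand. It was measured at 47.0, 35.3 and 42.5 CPM in control replicates 1, 3 and 5 and at 45.6, 46.0 and 51.8 CPM in siRBM3 replicates 3, 4 and 5. Control replicate 1 lay above 2 of the siRBM3 libraries. The log2 fold change was 0.20, from -0.10 to 0.49 (FDR 0.557), and without control replicate 1 the unadjusted p was 0.049. Without control replicate 3 the log2 fold change of TAF4 was 0.09.

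TAF1 and TAF2 contact promoter DNA around and downstream of the start site, and TAF1 also carries bromodomains that bind acetylated histones. TAF1 (chromosome X, 70586072 to 70752224, plus strand) was measured at 42.3, 54.0 and 48.1 CPM in control replicates 1, 3 and 5 and at 60.5, 51.6 and 56.7 CPM in siRBM3 replicates 3, 4 and 5. Its log2 fold change, 0.23 from -0.05 to 0.50 (FDR 0.475), was the highest of the 8. TAF2 (chromosome 8, 120743014 to 120845103, minus strand) was measured at 46.3, 55.7 and 41.5 CPM in control replicates 1, 3 and 5 and at 58.2, 51.2 and 56.0 CPM in siRBM3 replicates 3, 4 and 5. Its log2 fold change was 0.21, from -0.09 to 0.50 (FDR 0.541). For both genes the overlap came from control replicate 3, and without that library the unadjusted p was 0.0346 for TAF1 and 0.025 for TAF2. Leaving out the library that causes the overlap separates the groups by construction, so this omission is no support for a rise. The log2 fold change was then 0.32 for TAF1 and 0.33 for TAF2, and every other omission gave less. The lowest were 0.14 for TAF1, without control replicate 1, and 0.11 for TAF2, without control replicate 5.

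TBP, which binds the TATA box and bends the DNA, lies at chromosome 6, 170863390 to 170881958, plus strand. It was measured at 20.2, 22.7 and 24.3 CPM in control replicates 1, 3 and 5 and at 24.5, 23.8 and 26.1 CPM in siRBM3 replicates 3, 4 and 5. The groups met only at their edges, where siRBM3 replicate 4 was below control replicate 5, and the log2 fold change was 0.15, from -0.12 to 0.42 (FDR 0.645). TAF5, the scaffold with WD40 repeats around which the histone-fold subunits assemble, lies at chromosome 10, 105127723 to 105148822, plus strand. TAF5 was measured at 5.07, 3.79 and 5.01 CPM in control replicates 1, 3 and 5 and at 2.83, 5.21 and 5.93 CPM in siRBM3 replicates 3, 4 and 5. These are the lowest levels of the listed genes, from 99 to 147 counts a library. The lowest was again siRBM3 replicate 3, and whether its mitochondrial share bears on this was not tested. The log2 fold change of TAF5 was 0.00, from -0.66 to 0.65 (FDR 0.999), and 0.27 without siRBM3 replicate 3. The interval thus reaches past a 1.5-fold change in both directions.

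To set the genes beside each other, CPM was divided by the length of the canonical transcript in kb. On this scale the order of the control means was TAF6 at 36.7 ± 3.31 (SD, n = 3), TAF12 at 30.9 ± 2.55, TAF9B at 22.5 ± 2.11, TAF10 at 21.2 ± 0.946, TBP at 12.0 ± 1.11, TAF2 at 9.52 ± 1.44, TAF4 at 8.86 ± 1.26, TAF1 at 6.33 ± 0.774 and TAF5 at 1.42 ± 0.222 CPM per kb. Of the neighbours in this order, TAF9B and TAF10 overlapped over the control libraries (20.9 to 24.9 against 20.6 to 22.3 CPM per kb), as did TBP and TAF2 (10.9 to 13.1 against 8.26 to 11.1) and TAF2 and TAF4 (against 7.51 to 10.0), and the other neighbours did not overlap. In the siRBM3 libraries TAF9B averaged 37.7 ± 1.4 CPM per kb (36.7 to 39.3) and TAF6, its histone-fold partner, 34.2 ± 3.39 (30.7 to 37.5), so the 2 ranges overlapped, where in the control libraries TAF6 had been above TAF9B. The order depends on the length used. TAF10, at a control mean of 113 CPM before scaling, was divided by a canonical transcript of 5313 bases, and its annotated exon bases number 5820. Both lengths are close for this gene, so the alternative below hardly tests its place. Whether that transcript is the one made in these cells was not tested. Divided by all annotated exon bases instead, a choice made after the data were seen, TAF9B was highest in the control libraries at 21.8 CPM per kb, followed by TAF10 at 19.4, TAF6 at 12.4, TBP at 9.65 and TAF12 at 4.79.

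**Figure D3:**
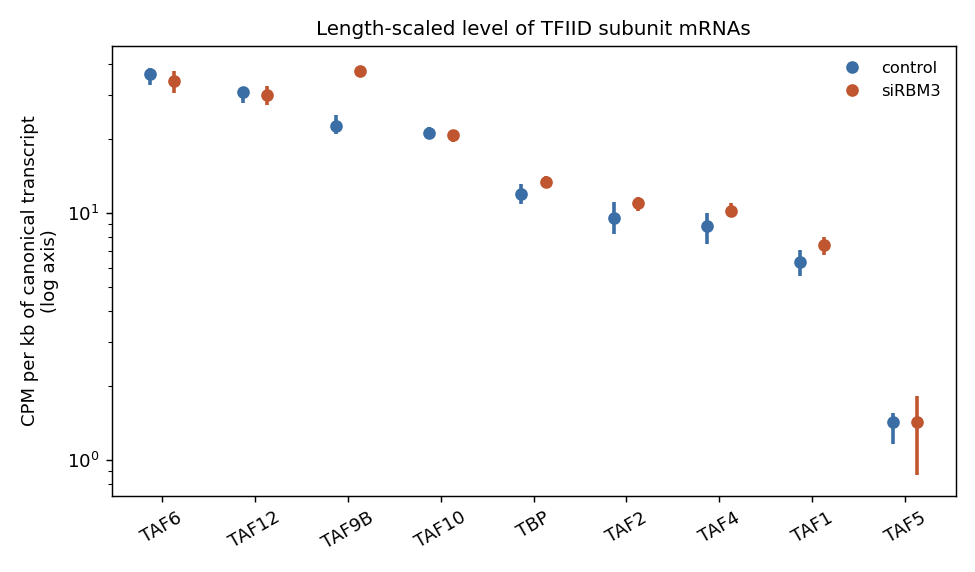
Level of the listed genes in CPM per kb of canonical transcript, on a log axis. A dot marks each group's mean, and a vertical line runs from its lowest to its highest library. TAF9B moves from a control mean of 22.5 to an siRBM3 mean of 37.7 CPM per kb. Its siRBM3 range (36.7 to 39.3) overlaps that of TAF6 (30.7 to 37.5), and TAF5 lies lowest in both groups.

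The remaining TFIID subunits were TAF3, TAF7, TAF8, TAF11 and TAF13, and the groups overlapped for all 5. TAF3, whose PHD finger reads methylated histone tails, and TAF7, which binds TAF1, both had a log2 fold change of -0.01. TAF8, a histone-fold partner of TAF10, was at 29.6, 21.8 and 28.8 CPM in control replicates 1, 3 and 5 and at 18.5, 26.5 and 25.2 CPM in siRBM3 replicates 3, 4 and 5, a log2 fold change of -0.20 from -0.60 to 0.21. Its value was -0.05 without siRBM3 replicate 3, the library with the high mitochondrial share, and -0.32 without control replicate 3. TAF11 and TAF13, which pair with each other, had log2 fold changes of -0.21 (from -0.52 to 0.11) and 0.04 (from -0.36 to 0.43), and the sign of TAF13 was the opposite with scaling by library size alone (-0.01). By edgeR 0 of the 5 reached an unadjusted p under 0.05, which for so few genes is near the 13.1% of all tested genes. Of 8 further TFIID paralogs and associated genes 4 could be tested, with 1 above and 3 below 0 and a median log2 fold change of -0.11. They included TAF4B, a paralog of TAF4, at -0.31 (FDR 0.588), TAF5L, the SAGA counterpart of TAF5, at -0.10 (FDR 0.789), and TBPL1, a TBP relative, at -0.13 (FDR 0.798). TAF15 and TAF1L were listed at 0 counts in all libraries. So was POLR2H, an RNA polymerase II subunit that every cell uses, and a 0 is therefore not read as absence.

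TAF9B is also a SAGA subunit, and 16 SAGA genes other than the TAFs were tested. Of these 9 were above and 7 below 0, the median log2 fold change was 0.02, and 1 in each direction had an unadjusted p under 0.05, beside 6.56% higher and 6.58% lower over all tested genes. TADA2B, an adaptor of the acetyltransferase module, was at 26.6, 23.2 and 24.6 CPM in control replicates 1, 3 and 5 and at 35.7, 30.3 and 29.9 CPM in siRBM3 replicates 3, 4 and 5, a log2 fold change of 0.37 from 0.09 to 0.65 with an FDR of 0.263. SF3B3, which is also part of a splicing complex, was at 353, 307 and 309 CPM in controls 1, 3 and 5, against 232, 281 and 282 CPM in siRBM3 libraries 3, 4 and 5, a log2 fold change of -0.29 (FDR 0.329). The groups of both genes did not overlap, but neither passed the adjusted threshold. USP22, the deubiquitinase, had a log2 fold change of 0.24 (FDR 0.409), with every siRBM3 library (505 to 544 CPM) above every control library (376 to 475 CPM). In all, 3 of 16 SAGA genes were separated upward and 1 downward, beside 9.98% and 9.93% of all tested genes.

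Of the 9 genes in the other complexes that contain TBP or act on it, 2 were above and 7 below 0, with a median log2 fold change of -0.09. In 3 of the 9 (TAF1A, TAF1B and DRAP1) every siRBM3 library was below every control library, beside 9.93% of all tested genes, and in 0 it was above (9.98%). By edgeR 1 of the 9, TAF1A, was lower at an unadjusted p under 0.05, beside 6.58%. TAF1B, another SL1 subunit with a log2 fold change of -0.19, is named because it is among these 3, after its values were seen. TAF1A, a subunit of the RNA polymerase I factor SL1, was at 10.3, 15.5 and 10.9 CPM in control replicates 1, 3 and 5 and at 8.46, 9.40 and 7.91 CPM in siRBM3 replicates 3, 4 and 5. Its log2 fold change was -0.51, from -0.94 to -0.07 (unadjusted p = 0.027, FDR 0.31). DRAP1, a subunit of the TBP-binding repressor NC2, had a log2 fold change of -0.20 (FDR 0.388), and BDP1, of the RNA polymerase III factor TFIIIB, had 0.26 (FDR 0.457).

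Among the general transcription factors other than TFIID, 16 of 17 were tested, 5 were above and 11 below 0, and the median log2 fold change was -0.04. CCNH, the cyclin of the TFIIH kinase, had the smallest unadjusted p of the list (0.0461, FDR 0.372) at a log2 fold change of -0.42, although the groups overlapped. GTF2A1, of TFIIA, had 0.24 (FDR 0.525), and GTF2E1, of TFIIE, had 0.13 (FDR 0.66). Of 12 RNA polymerase II subunits 11 were tested, 5 above and 6 below 0, with a median of -0.02. POLR2C was at 68.6, 79.5 and 71.7 CPM in control replicates 1, 3 and 5 and at 59.3, 62.7 and 62.4 CPM in siRBM3 replicates 3, 4 and 5, a log2 fold change of -0.25 (unadjusted p = 0.0296, FDR 0.322). The groups did not overlap for 1 of the 16 general factors (GTF2E1, higher), nor for 2 of the 11 polymerase subunits, 1 in each direction, and 1 gene of each list was lower at an unadjusted p under 0.05, beside 6.58% of all tested genes. POLR2F had -0.20 (FDR 0.472), and POLR2A, the catalytic subunit, had 0.17 (FDR 0.497). DESeq2 called no gene of these lists, which is near its share over all genes (1.22%) for lists of this size.

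**Figure D4:**
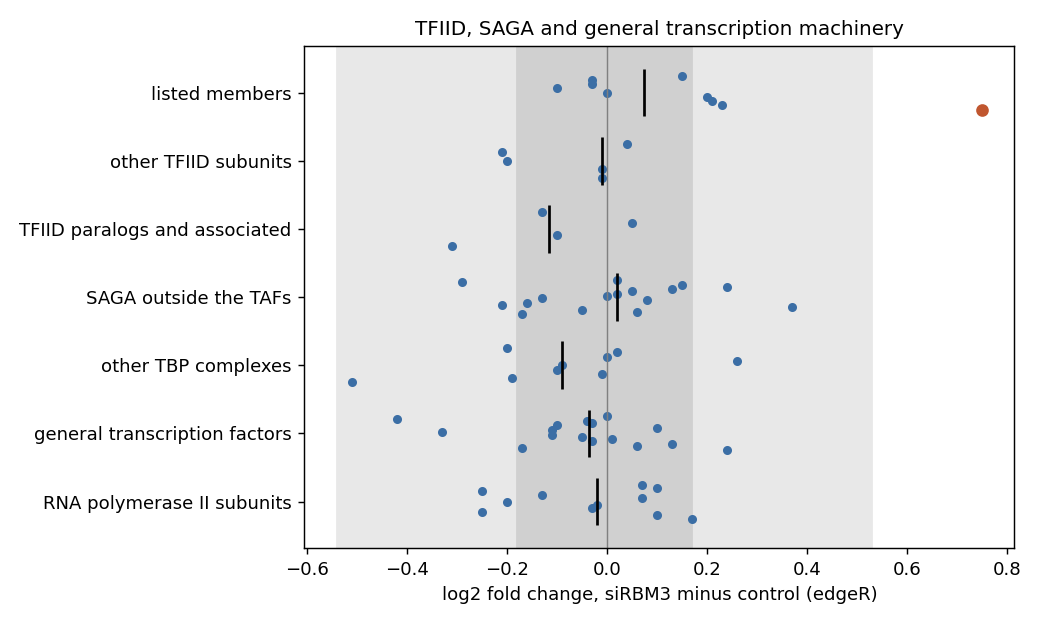
Log2 fold change, siRBM3 over control, of each tested gene in each list, with a black bar at the list's median (TAF9B, in orange, left out of it) and grey bands for the 5th to 95th (-0.54 to 0.53) and 25th to 75th (-0.18 to 0.17) percentiles of all 15099 tested genes. TAF9B at 0.75 lies above the wider band, and every other point lies inside it.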

How the data were processed

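RNA of T24 cells was sequenced as single-end 75-base reads from stranded poly(A) libraries, 3 with control siRNA and 3 with siRBM3. The authors trimmed reads with BBDuk, aligned them to GRCh37 with STAR 2.5.2a, flagged duplicates using Picard and assigned reads to genes using featureCounts. The deposited values are raw counts, 1 whole number per Ensembl identifier and library. The sources used here do not give the annotation release, the strand setting or the treatment of duplicates. Of 63677 identifiers 55665 were matched to a symbol. Places, sequences and transcript lengths were taken from GENCODE lifted to GRCh37. Genes were filtered with filterByExpr (minimum count 10, minimum total 15), scaled by TMM factors and tested with the quasi-likelihood method of edgeR 4.0.16, with robust dispersions and Benjamini-Hochberg adjustment over 15099 genes. Alternative tools in R 4.3.3 were limma-voom (limma 3.58.1) and DESeq2 1.42.0. The steps were tested on simulated data. Python 3.11.15 was used for sequences and plots. Chi-square per degree of freedom between libraries of a group ranged from 27.7 to 141, so none was the same library sequenced again. The value does not tell separate cultures from separate library preparations of the same RNA.

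The members, gene lists and tests were chosen with earlier results of these data known. Genes named were RBM3, the listed genes, genes whose exons overlap theirs, the other TFIID subunits, in each further list the 3 of lowest p, the cell type markers, and the 5 genes most like TAF9B. Alternatives were other scalings, filters, tools and thresholds, the replicate number as a block, and each library left out.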

Additional observations from a re-analysis of the deposited data

How the results depend on the processing

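TAF9B had a log2 fold change of 0.75, and none of the alternatives changed its direction. The gene was selected on these same libraries, so the unchanged direction is a description and no support for the rise. Genes called at both thresholds numbered 279 without the filter on low counts, 159 with DESeq2 and 336 with a replicate block, against 0. Leaving out 1 library gave 0 to 1 genes, PLSCR1 (log2 -1.43, FDR 0.00901) without control replicate 1. At an FDR below 0.1 with no fold threshold, 83 genes passed. RBM3 passed both thresholds without the filter (log2 -2.13), with DESeq2 (-2.14) and with the replicate block (-2.57), and ranged from -2.40 to -1.96 with 1 library left out. Of the 8 other TFIID genes, 1 was under the unadjusted threshold with the replicate block, which was TAF4 (log2 0.33 against 0.20, edgeR FDR 0.0779), and 0 to 2 were with 1 library left out. These were TAF4 without control replicate 1, and TAF1 and TAF2 without control replicate 3. Values near 0 changed sign. With library size alone TAF13 was at -0.01 and the SAGA median at -0.03, and with the replicate block at -0.15 and -0.05. TAF5 was at 0.01 without the filter and at 0.00 with DESeq2. With 1 library left out the ranges were -0.22 to 0.27 for TAF5, -0.11 to 0.19 for TAF13, -0.09 to 0.07 for TAF3, -0.07 to 0.07 for TAF7, -0.06 to 0.02 for TAF10, -0.10 to 0.03 for TAF12 and -0.28 to 0.16 for the AK6 row. The list medians then ranged from -0.05 to 0.04 for SAGA, -0.10 to 0.02 for the general transcription factors and -0.07 to 0.02 for RNA polymerase II. With the replicate block the medians were -0.15 for the other TFIID subunits (-0.01 without it), -0.18 for the general transcription factors (-0.04) and -0.13 for RNA polymerase II (-0.02). The median of the 8 members other than TAF9B, 0.07, was 0.03 with the block and 0.16 without siRBM3 replicate 3. With the replicate block, control replicate 1 and siRBM3 replicate 4 are each alone in their block. That fit therefore compares the groups by replicates 3 and 5 only. The cause of the other differences was not tested. The groups share only the replicate numbers 3 and 5, whose deviations from the group means correlated at 0.61 and 0.09 across genes. Pairs of unlike number ran from -0.42 to 0.28, so the value for replicate 3 was the highest of all pairs. The labels do not say whether the numbers mark shared batches, and the main fit did not take them as pairs. The planned share of TAF9B in the sum of TAF9B and TAF9 was not run, since TAF9 has no row of its own. Counting the AK6 row with the members, chosen after seeing the data, added no gene under the unadjusted threshold in the fit without the block. With the replicate block that row was at -0.36 against -0.06 and was under it (edgeR FDR 0.093). TAF5 had 99 to 147 counts a library, the fewest of the listed genes.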

Other observations

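The 5 tested genes whose level over the 6 libraries was most like that of TAF9B, by Pearson's r of log2(CPM + 0.5), were DYNLT3 (r = 0.99), ACVR1C (0.9897), HAVCR2 (0.9895), PLCB1 (0.9883) and TRAPPC2 (0.9871). They were picked as the highest of all tested genes, and the libraries share their group, so the values describe likeness only. DYNLT3, a dynein light chain, was at 20.1, 20.3 and 24.3 CPM in control replicates 1, 3 and 5 and at 37.0, 34.9 and 34.0 CPM in siRBM3 replicates 3, 4 and 5, a log2 difference of 0.71 beside 0.75 for TAF9B. TRAPPC2, a subunit of a vesicle tethering complex, was at 9.14 to 10.3 CPM in the control and 14.6 to 15.7 CPM in the siRBM3 libraries. PLCB1, a phospholipase, had a log2 difference of 0.26 and HAVCR2, an immune checkpoint receptor, one of 0.41. ACVR1C, a receptor of the TGF-beta family, had a log2 difference of 1.05 at levels of 0.655 to 1.74 CPM. None of the 5 is a TFIID or SAGA subunit in the lists used here.

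Among the cell type markers, KRT7, an epithelial keratin, was at 3240, 3160 and 3100 CPM in control replicates 1, 3 and 5 and at 2540, 2430 and 2350 CPM in siRBM3 replicates 3, 4 and 5. Its log2 fold change was -0.38, from -0.59 to -0.16, with an FDR of 0.17 by edgeR and of 0.00967 by DESeq2, below the fold threshold in both. KRT8 had a log2 fold change of -0.37 (edgeR FDR 0.309), and GATA3, a urothelial transcription factor, one of 0.37 (edgeR FDR 0.353). In all 9 of 15 epithelial and urothelial markers were tested, 4 above and 5 below 0, with a median of -0.07.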
